A study of Apis mellifera with 6 samples.

Results

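Juvenile hormone esterase (*Jhe*) and Krüppel homologue 1 (*Kr-h1*) are a pair of genes at opposite ends of juvenile hormone signalling, the first removing the hormone and the second responding to it. Both were taken by name, and their transcripts were found by placing the exon coordinates of the quantified targets on the RefSeq genes of the honey bee assembly Amel_HAv3.1. They make up 2 of the 12280 genes that could be paired with targets, *Jhe* with 1 target and *Kr-h1* with 4. Their expression was followed by RNA-seq in the central brain of newly-eclosed honey bees (*Apis mellifera*) of 3 phenotypes, worker, queen and drone, with 2 libraries for each. Workers and queens are diploid females that differ in larval rearing, and drones are haploid males. All bees descended from the same mother queen, emerged in an incubator, received no treatment and were taken within an hour of eclosure. The optic lobes were cut away from every brain and the hypopharyngeal glands from those of workers, and the RNA of a library came from several pooled brains, so the spread between libraries is a spread between pools and not between bees.

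Juvenile hormone is a sesquiterpenoid made in the corpora allata, a pair of glands behind the insect brain, where juvenile hormone acid methyltransferase and an epoxidase complete its synthesis. JHE is a carboxylesterase that cleaves the methyl ester of the hormone, and in insects it is made in large part by the fat body and secreted into the haemolymph. The hormone binds the receptor Methoprene-tolerant, and the zinc finger factor Kr-h1 is the best known gene switched on by that receptor. In honey bees the hormone is known for its part in queen and worker development and in the passage of workers from nursing to foraging, and *Kr-h1* is known from mushroom bodies of foragers.

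The estimated counts of a library added up to between 7685185 (worker replicate 2) and 44373783 (queen replicate 1), and worker replicate 1 (12432182) and drone replicate 2 (11287495) were also shallow. Levels are given as CPM, the count scaled by TMM to a fixed total over the 9683 genes tested, for comparing phenotypes, and as the deposited TPM, which is per transcript length, for setting genes side by side. Tests are edgeR's quasi-likelihood tests over all 6 libraries, with Benjamini-Hochberg adjusted p-values (FDR) and a threshold of 0.05. A gene was tested if it had at least 5 counts in at least 3 libraries, which *Jhe* met in all 6 libraries and *Kr-h1* in all but worker replicate 2. The 3 comparisons share libraries and are not independent of each other.

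Both genes were checked against their annotation. *Jhe* (RefSeq gene 406066, also listed as *Est* and *Dpa1*) is a plus-strand gene of chromosome 3 (9456503 to 9459237), and its target has 8 exons with a summed length of 2076 nt. The whole gene sits within an intron of LOC100577253 (9449792 to 9459960), which is on the minus strand, and the exons of both share 0 bases. The carboxylesterase gene *Est-6* starts 2491 bp beyond *Jhe* on the same strand. *Kr-h1* (gene 100576395) is a minus-strand gene of chromosome 6 (16501760 to 16510451), with LOC100578161 at a distance of 4003 bp on one side and LOC552472 at 4915 bp on the other.

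*Jhe* was lowest in workers, intermediate in queens and highest in drones, and the phenotypes did not overlap. It had 241 and 167 counts in the worker libraries, 2321 and 1135 in queens and 3195 and 883 in drones, all of them whole numbers, so no *Jhe* read had been divided with another target. Scaled to CPM, its level was 19.7 and 23.5 in workers, 57.1 and 57.2 in queens and 90.9 and 91.8 in drones. Replicate pools of queens and of drones were nearly equal, and the largest difference between replicates was that between the worker pools. The means were 21.6 ± 2.66 CPM in workers, 57.2 ± 0.0262 in queens and 91.4 ± 0.661 in drones (SD, n = 2). Exact Poisson 95% intervals, which cover counting error only since reads without molecular identifiers are not independent molecules, ran from 17.3 to 22.4 and from 20.1 to 27.3 CPM in workers. They ran from 53.9 to 60.6 CPM over the queen libraries and from 85.9 to 98.1 CPM over the drone libraries, so the intervals of different phenotypes did not meet. Drone replicate 2, with fewer counts in all than worker replicate 1, still held 883 *Jhe* counts against 241. In bulk tissue, fewer cells that express a gene and less RNA per cell cannot be told apart.

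**Figure D1:**
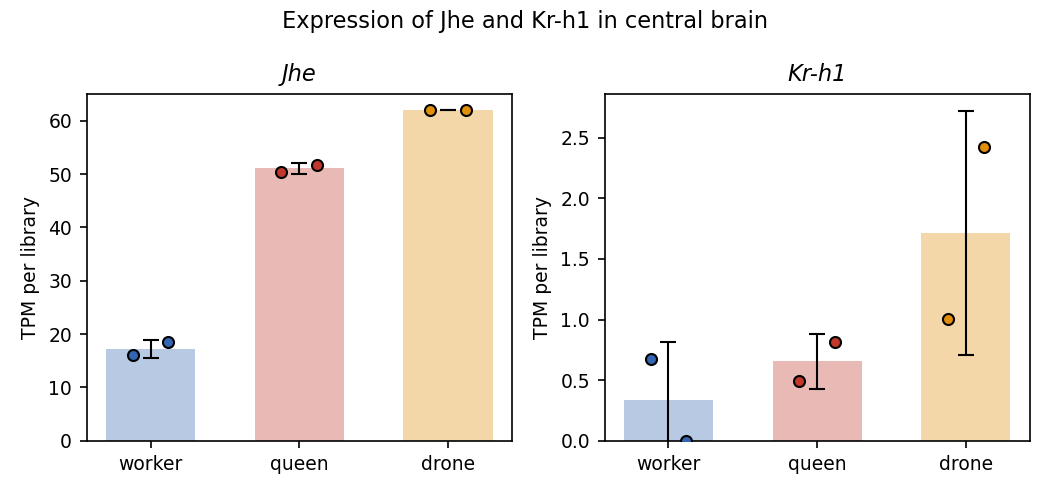
Level in TPM (y axis, linear from 0) of Jhe (left) and Kr-h1 (right) in each library of worker, queen and drone central brain; points are libraries, bars are means and lines are the SD of 2 libraries, cut off at 0 for Kr-h1 in workers. Jhe runs from 16.0 TPM in a worker pool to 62.0 TPM in both drone pools with no overlap, whereas Kr-h1 does not exceed 2.43 TPM and its worker and queen libraries overlap.

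Against workers, queens had *Jhe* 2.67-fold higher. On the log2 scale the difference was 1.41 (SE 0.11, 95% interval 1.17 to 1.66, edgeR FDR = 9.69e-06), with 22.3% of all genes tested called in this comparison and 11.9% called higher in queens. The queen libraries were above both worker libraries for 35.2% of genes. *Jhe* ranked 336 by fold change among the 1154 genes called higher in queens. It was thus in the upper part of the queen-biased genes and far from their top.

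Against workers, drones had *Jhe* 4.26-fold higher, the largest difference of the gene. The log2 difference was 2.09 (SE 0.11, 95% interval 1.85 to 2.33, edgeR FDR = 3.92e-07), beside 28.6% of genes called in either direction and 13.4% called higher in drones. *Jhe* ranked 319 among the 1302 genes called higher, and 4.21% of genes were called above workers in both queens and drones. Both comparisons kept the call under all 19 alternatives, with log2 differences from 1.27 to 1.56 for queens and from 1.79 to 2.21 for drones.

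Drones had *Jhe* 1.60-fold higher than queens, a smaller difference that depended on the scale. The log2 difference was 0.68 (SE 0.10, 95% interval 0.46 to 0.89, edgeR FDR = 0.000421), where 30.8% of genes were called and 13.8% were called higher in drones. *Jhe* ranked 793 of the 1338 genes called higher. On TPM its level was 16.0 and 18.5 in workers, 50.3 and 51.8 in queens, and 62.0 in both drone libraries, so the order of the phenotypes was kept but drones were only 1.21-fold above queens. With limma on log2(TPM + 1), the log2 difference between drones and queens was 0.28 and missed the threshold (FDR = 0.0832). On that scale the median of all genes was itself shifted by -0.28 between drones and queens, by -0.14 between drones and workers and by 0.14 between queens and workers. Relative to that median, *Jhe* differed by 0.56 between drones and queens, by 1.94 between drones and workers and by 1.37 between queens and workers. With the medians of the libraries aligned, limma gave 0.58 for drones against queens (FDR = 0.0262), an alternative chosen after seeing the data.

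The order of worker, queen and drone in *Jhe* held in every library, as it did for 570 genes, or 5.89% of those tested, and all 3 pairs were called as well for 131 genes, or 1.35%. In the joint test of caste *Jhe* had an edgeR FDR of 7.13e-07, and 39% of genes were called there. *Jhe* was a gene of middle to high rank in these brains, at the 58.6 and 60.8 percentile of TPM among genes tested in workers, 73.4 in both queen libraries and 81.8 and 81.0 in drones.

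The genes around *Jhe* did not share its order. LOC100577253, whose intron holds *Jhe*, was low, at 2.54 and 0.985 CPM in workers, 2.98 and 3.68 in queens and 1.45 and 0.520 in drones, and its worker and drone libraries overlapped. It was called only between drones and queens, and in the opposite direction to *Jhe* (log2 difference -1.60, SE 0.52, edgeR FDR = 0.0416), and 8 of 18 alternatives lost that call. The library kit marks strand and the study's methods state that Kallisto was run with that setting, so reads of the opposite strands were counted apart. *Est-6*, the neighbouring esterase, was low, at 0.246 and 0.563 CPM in workers, 1.08 and 1.51 in queens and 0.569 and 0.312 in drones. It had 3 to 44 counts per library and no comparison called. Its queen libraries were above the worker libraries (log2 difference 1.76, edgeR FDR = 0.0885) and the drone libraries (drones against queens -1.41, edgeR FDR = 0.0924). LOC726175, the nearest gene on the other side that does not overlap *Jhe*, was abundant, between 566 and 761 CPM. It was called only between drones and queens, by 0.29 on the log2 scale (SE 0.10, edgeR FDR = 0.0486). Only 9 of 19 alternatives kept that call, and its direction turned to -0.10 with limma on log2(TPM + 1).

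**Figure D2:**
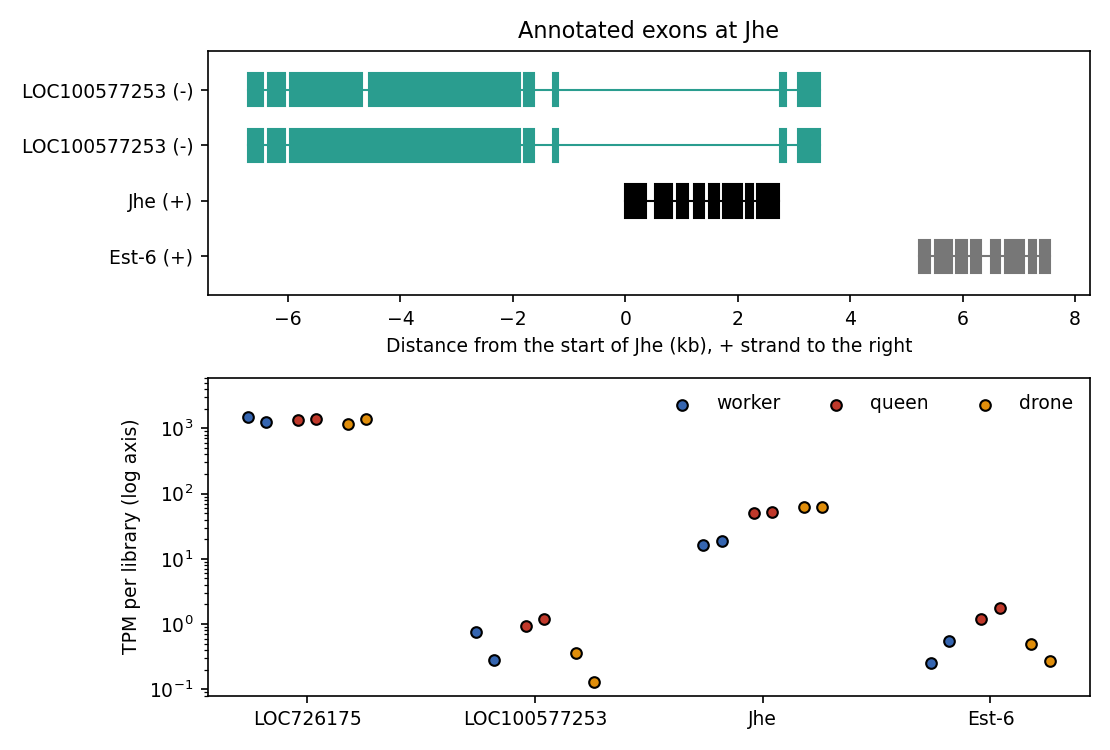
Upper panel, annotated exons (boxes) and introns (lines) of Jhe, of both targets of LOC100577253 and of Est-6, by distance in kb from the start of Jhe, with strand in brackets. Lower panel, TPM per library (log axis) of these genes and of LOC726175, which lies to the left of the drawn region; Jhe rises from 16.0 to 62.0 TPM while its host gene LOC100577253 stays below 1.20 TPM in every library and its worker and drone libraries overlap.

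*Kr-h1* was a low-count gene in all brain libraries. It had 12 and 0 counts in workers, 26 and 20 in queens and 54 and 32 in drones, or 0.983 and 0 CPM, 0.640 and 1.01 CPM, and 1.54 and 3.33 CPM. The lower drone library was above all 4 female libraries, whereas the worker and queen libraries overlapped. A count of 3, taken as the floor, corresponds to between 0.0738 and 0.422 CPM, so 5 of the 6 libraries were above the floor and worker replicate 2 was not. At the level of worker replicate 1, worker replicate 2 would have held 6.98 counts, and its 0 counts allow a level of up to 0.519 CPM by the exact Poisson 95% interval, beside 0.508 to 1.72 CPM in worker replicate 1. The means were 0.491 ± 0.695 CPM in workers, 0.824 ± 0.260 in queens and 2.43 ± 1.27 in drones (SD, n = 2).

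Drones had the highest *Kr-h1*, but no pair of phenotypes passed the threshold, with edgeR or with DESeq2. The log2 difference was 2.02 between drones and workers (SE 0.85, 95% interval 0.11 to 3.94, unadjusted p = 0.0406, edgeR FDR = 0.108), and DESeq2 gave an FDR of 0.0776. Between drones and queens it was 1.53 (SE 0.75, 95% interval -0.15 to 3.20, edgeR FDR = 0.162). Between queens and workers it was 0.49 (SE 0.88, 95% interval -1.48 to 2.46, edgeR FDR = 0.735), an interval that leaves room for a several-fold difference either way. The joint test of caste gave an edgeR FDR of 0.127. Drone libraries lay above both libraries of the other phenotype, as *Kr-h1* did, for 30.1% of genes against workers and 29.9% against queens.

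The *Kr-h1* call between drones and workers turned on how the libraries were handled. It passed when all libraries were thinned to the depth of the smallest by a single random draw (2.72, edgeR FDR = 0.0391). That draw left 6, 0, 5, 3, 15 and 22 counts in worker, queen and drone libraries in that order, and no other draw was made. The call was also made with limma on TPM after aligning medians (1.17, FDR = 0.0480). It passed also without worker replicate 1, when the only worker library left had 0 counts and the fitted value of 8.73 is not a bound (edgeR FDR = 0.0173). Without worker replicate 2 the log2 difference between drones and workers was 1.24, and that between queens and workers changed sign to -0.28. The joint test of caste ranged from an FDR of 0.0176 to 0.375 when 1 library was left out.

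On the per-length scale *Kr-h1* reached 0.676 and 0 TPM in workers, 0.496 and 0.816 in queens and 1.00 and 2.43 in drones. Mean TPM of *Jhe* was 51.0 times that of *Kr-h1* in workers, 77.9 times in queens and 36.2 times in drones. The worker ratio rests on the 12 *Kr-h1* counts of worker replicate 1, since worker replicate 2 had 0, so it is not precise. *Kr-h1* stood at the 2.09 to 22.1 percentile of genes tested in workers, 15.0 to 18.9 in queens and 27.7 to 42.3 in drones. The enzyme that degrades the hormone was thus a well expressed transcript in these brains, and the response factor was far less abundant.

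The *Kr-h1* targets differ mainly in their last exon. Transcript A (4 exons, 3158 nt) ends in an exon of 1304 nt from 16501760 to 16503063, and transcript B (4 exons, 2170 nt) ends in an exon of 316 nt from 16504512 to 16504827. Transcripts C (3 exons, 1756 nt) and D (2 exons, 1503 nt) end in an exon that A and B have as an inner one, and D also lacks the first exon. RefSeq lists 2 coding and 2 non-coding transcripts for the gene, and which target is which was not settled here.

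Most *Kr-h1* counts were assigned to transcript B, and transcripts C and D were seen almost only in drones. Of the counts summed over both libraries, B held 66.5% in workers, 76.0% in queens and 55.5% in drones, and A held 33.5%, 23.0% and 14.8%. Transcript C had 0 counts in each female library and 6.10 and 11.7 estimated counts in drones, which is 20.7% of the drone counts. Transcript D had 0.480 counts in queen replicate 1, 5.46 and 2.30 in drones and 0 in the other libraries. All 4 transcripts share most of the inner exons, and these are Kallisto's estimates from 12 to 86 counts per phenotype, so the shares rest on few reads. Only B passed the filter on low counts, and when single transcripts were tested it was not called in any pair (edgeR FDR from 0.454 to 0.804), while the *Jhe* target was called in all 3 (edgeR FDR = 0.00579, 0.00138 and 0.0199), beside 6%, 10.5% and 11.2% of transcripts called for queens against workers, drones against workers and drones against queens.

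**Figure D3:**
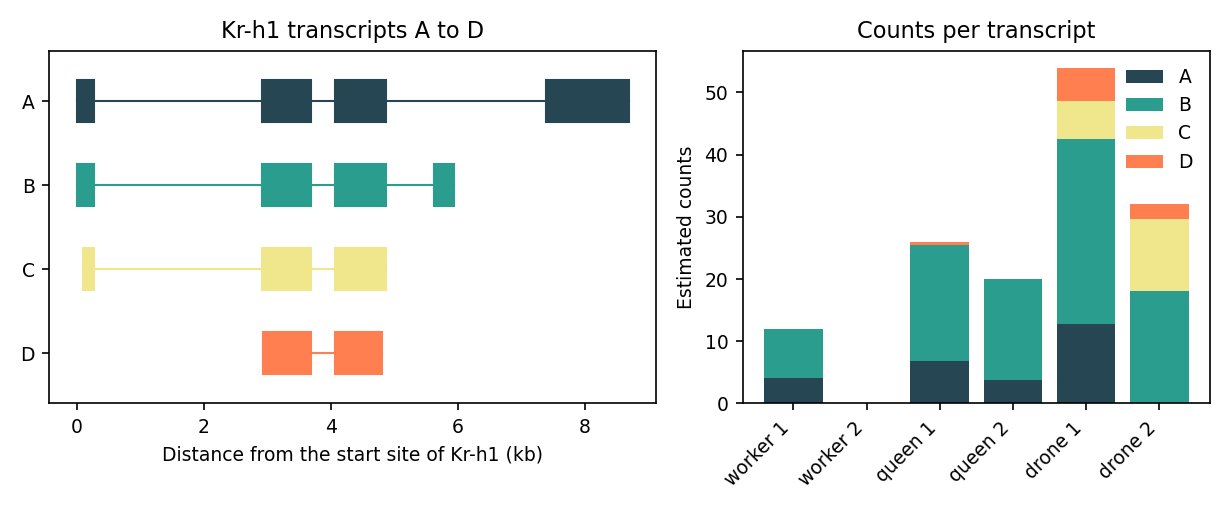
Left, exons (boxes) and introns (lines) of the 4 Kr-h1 targets, A to D, by distance in kb from the start site of the gene. Right, estimated counts (y axis) assigned to each target in each library, stacked; worker replicate 2 has 0 counts, drones have 54 and 32, and C appears in the drone bars only.

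Of the 2 genes listed for juvenile hormone synthesis, 1 was called, and in drones it went the opposite way to *Jhe*. Juvenile hormone acid methyltransferase (*jhamt*, listed as LOC724216) adds the methyl group that JHE removes, and was at 93.5 and 83.9 CPM in workers, 146 and 128 in queens and 12.9 and 14.3 in drones. Its order was therefore drone, worker, queen from low to high, with no overlap, where that of *Jhe* was worker, queen, drone. Queens had more *jhamt* than workers (log2 difference 0.63, SE 0.10, edgeR FDR = 0.00118), as they had more *Jhe*. Drones had less *jhamt* than workers (-2.73, SE 0.11, edgeR FDR = 8.07e-08) and than queens (-3.36, SE 0.11, edgeR FDR = 8.84e-09), where they had more *Jhe*, and 15.2% and 16.9% of genes were called lower in drones in these comparisons. All 3 *jhamt* calls held under all 19 alternatives. *CYP15A1* (LOC551179), the epoxidase of the pathway, stayed between 0.737 and 2.08 CPM with no comparison called. The methyltransferase marks the corpora allata, which lie outside the brain, and its share of tissue in each dissection was not tested.

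**Figure D4:**
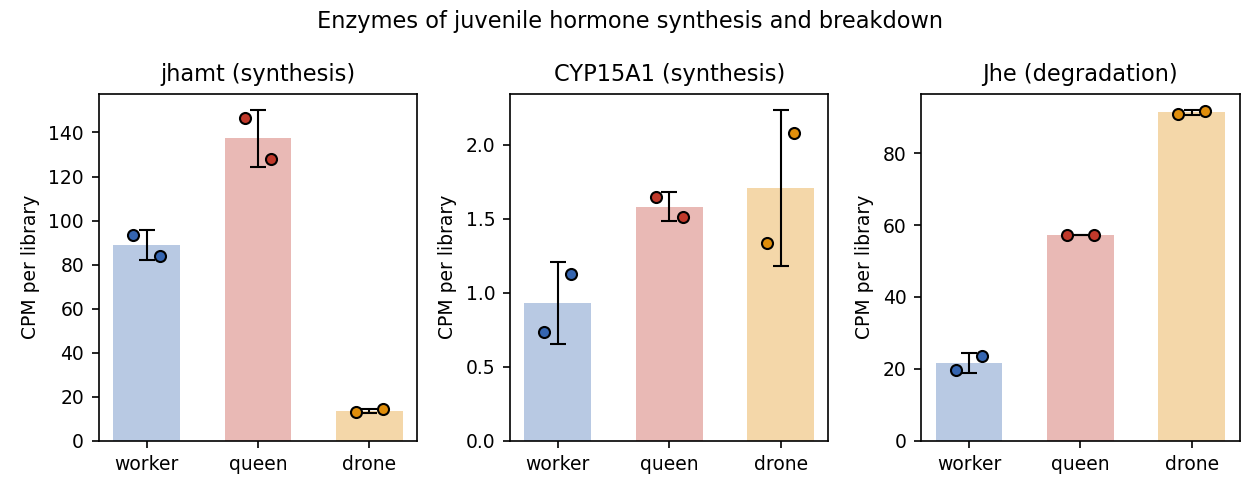
CPM per library (points), mean (bars, from 0) and SD of 2 libraries (lines) for jhamt and CYP15A1, which act in juvenile hormone synthesis, and for Jhe, which degrades the hormone, each panel with its own y axis. In drones jhamt is at 12.9 and 14.3 CPM, its lowest, and Jhe at 90.9 and 91.8 CPM, its highest.

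Of the genes of receptor and response, *Hsp90* and *Usp* were called in at least 1 comparison. The list names *Kr-h1*, *Usp*, *Hsp90*, *Mblk-1* and *Br-c*, and 0 of its 5 members were called between queens and workers by edgeR or by DESeq2, with 2 at an unadjusted p below 0.05 in edgeR, beside 22.3% of all genes called. Against workers, 0 of the 5 were called higher and 1 lower in drones, beside 13.4% and 15.2% of all genes. Against queens, 0 were called higher and 2 lower in drones, beside 13.8% and 16.9%. In drones, the chaperone gene *Hsp90* was lower than in workers (log2 difference -0.29, edgeR FDR = 0.0276) and than in queens (-0.26, edgeR FDR = 0.0417). These calls were lost under 8 and 10 of 19 alternatives. *Usp*, the nuclear receptor partner of the ecdysone receptor, was at 1.74 and 0.832 CPM in drones and 2.81 and 5.14 in queens (-1.51, edgeR FDR = 0.0248), a call lost under 6 of 18 alternatives. *Mblk-1*, the homologue of the metamorphosis factor *E93*, and *Br-c*, the broad-complex gene, were at 27.1 to 68.3 and 10.2 to 17.7 CPM with no call.

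The ecdysone receptor gene *Ecr*, which encodes the receptor of the other developmental hormone, was at 302 and 353 CPM in workers, 654 and 600 in queens and 234 and 193 in drones. It was higher in queens than in workers (log2 difference 0.94, edgeR FDR = 0.000178) and lower in drones than in workers (-0.61, edgeR FDR = 0.00211) and queens (-1.55, edgeR FDR = 2.62e-06). With the most abundant transcript of each gene, the value for drones against workers was -0.25 and lost its call (edgeR FDR = 0.299). Drones, with the most *Jhe*, therefore had the least *Ecr*. The early ecdysone genes *E75* and *E74* were called in no comparison.

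Of the 6 genes listed as carriers, hexamerins, vitellogenin and a binding protein, 3 were called higher in queens and 2 in drones than in workers, beside 11.9% and 13.4% of all genes. Between drones and queens 2 were higher and 2 lower in drones, beside 13.8% and 16.9% of all genes. *HEX70b* was called in no comparison. *Hex70c*, a hexamerin, was the one pathway gene besides *Jhe* that was called higher in queens than in workers and again higher in drones than in queens. It was at 0.573 and 0.844 CPM in workers, 2.95 and 2.37 in queens and 7.23 and 7.07 in drones, with log2 differences of 1.96 (queens against workers, edgeR FDR = 0.00444), 3.38 (drones against workers, edgeR FDR = 8.29e-05) and 1.42 (drones against queens, edgeR FDR = 0.00416). Without worker replicate 1, the first of these was 1.65 and lost its call (edgeR FDR = 0.0644). *Hex70c* thus had the order of *Jhe* at a far lower level. *Hex110* was higher in queens than in workers (1.40, edgeR FDR = 0.0196), *Hex70a* was higher in drones than in workers (1.54, edgeR FDR = 0.0317), and these calls were lost under 6 and 12 of 19 alternatives. The insulin receptor gene *InR-2*, of a pathway that acts on the corpora allata in insects, was higher than in workers in queens (1.09, edgeR FDR = 5.75e-05) and in drones (0.75, edgeR FDR = 0.000504), and the second call was lost under 3 of 19 alternatives, with 0.41 on log2(TPM + 1). *JHBP-1*, a juvenile hormone binding protein, had 0 to 43 counts per library and no call, and *Apime-ASTA* and *ILP-2* had at most 10 and 8 counts and were not tested.

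Of the 6 genes listed as carboxylesterases, a list that takes in neuroligins, 4 had a called rise in queens over workers, *Jhe* among them. Of all genes, 11.9% were called higher in that comparison. *AChE-2*, an acetylcholinesterase of cholinergic synapses, was higher in queens than in workers (log2 difference 0.95, edgeR FDR = 1.55e-05) and lower in drones (-0.95, edgeR FDR = 9.45e-06), and *NLG-5*, a neuroligin, did likewise (0.46 and -0.47, edgeR FDR = 0.0129 and 0.0103), calls lost under 5 and 2 of 19 alternatives. Another neuroligin gene, *NLG-4*, was higher in queens (0.56, edgeR FDR = 0.00169), and *NLG-3* was not called. In drones against workers 1 of the 6, *Jhe*, was called higher and 2 were called lower, beside 13.4% and 15.2% of all genes. No difference between *Jhe* and the others was tested. All lists from synthesis to carboxylesterases together held 21 genes tested besides *Jhe* and *Kr-h1*, not all of them genes of the hormone's own pathway. The lists were chosen with earlier results of these data known, so the counts that follow describe the lists and test nothing. Of the 21, 9 were higher and 0 lower in queens than in workers, where 11.9% of all genes were called higher and 10.4% lower. The median log2 difference was 0.80, against 0.03 over all genes. Among the 9 were *AChE-2*, *NLG-4* and *NLG-5*, listed as carboxylesterases only, and *Ecr*, listed for ecdysone only. Against workers, 3 of the 21 were higher and 5 lower in drones (median 0.37, against 0.01), beside 13.4% and 15.2% of all genes. Against queens 2 were higher and 10 lower in drones (median -0.34, against 0.00), beside 13.8% and 16.9%.

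**Figure D5:**
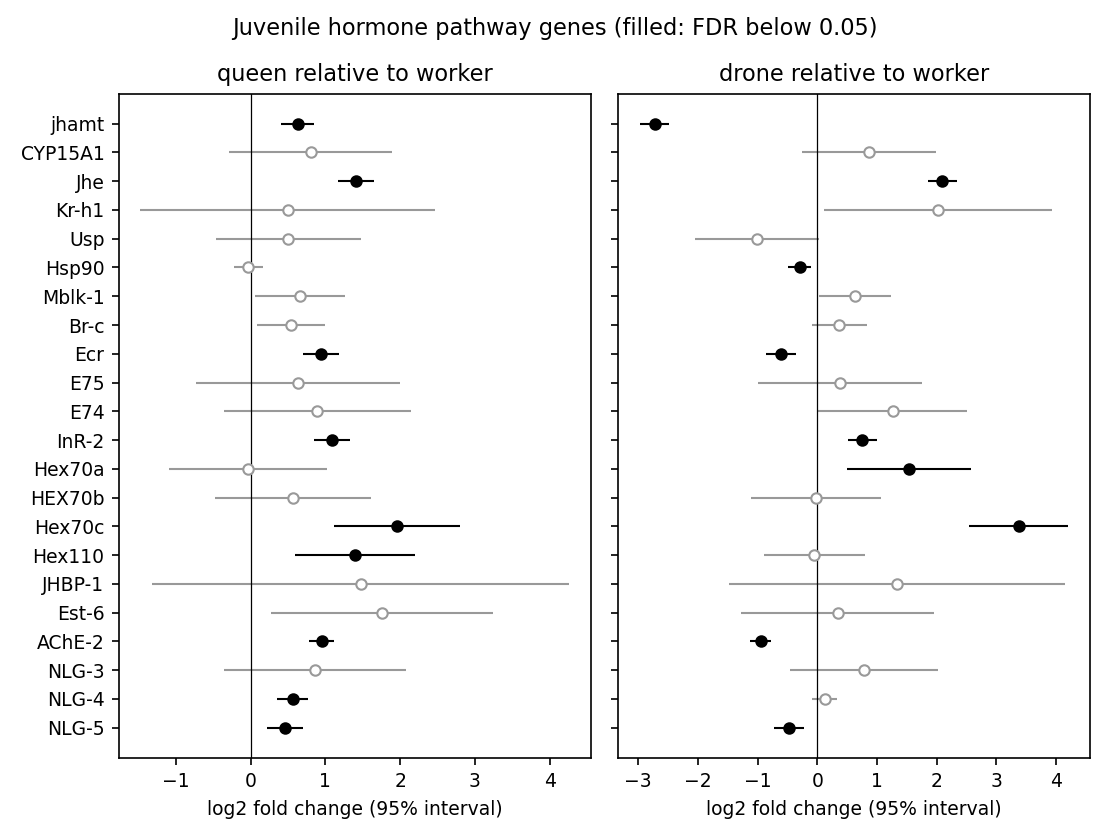
Log2 differences with 95% intervals for genes of the juvenile hormone lists, which also hold ecdysone genes, neuroligins and other genes listed as carboxylesterases. Queens relative to workers are on the left and drones relative to workers on the right. Filled points have an edgeR FDR below 0.05, and Vg, with at most 1 count in a worker library, is not drawn. Jhe lies at 1.41 and 2.09, jhamt at 0.63 and -2.73, and Kr-h1 at 0.49 and 2.02 with intervals that are the widest or nearly so.

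Marker genes of brain cell types and of other tissues differed between the phenotypes, and their part in the *Jhe* and *Kr-h1* values was not tested. The 6 fat body markers summed to 1184 to 1299 TPM in workers, 1224 to 1233 in queens and 1494 to 1581 in drones, most of it *Tsf1*, and 3 of the 6 were called higher in queens and 3 in drones against workers, beside 11.9% and 13.4% of all genes. Vitellogenin, *Vg*, a defining product of fat body, had 1 and 0 counts in workers, 1109 and 1425 in queens and 21 and 0 in drones, while *Tsf1* (log2 difference 0.54), *Hex70a* (1.54) and *Hex70c* (3.38) were those called higher in drones than in workers. The 10 neuronal markers summed to 529 to 576 TPM in workers, 743 to 747 in queens and 395 to 422 in drones, and none was at 0. The 4 glial markers summed to 4684 to 4902 TPM in workers, 5700 to 5886 in queens and 2829 to 2939 in drones. The 4 photoreceptor markers summed to 4393 to 4539, 579 to 619 and 1900 to 2090 TPM. Such sums follow their abundant members, and not all members moved with them. Of the neuronal markers, 3 were called higher and 4 lower in drones than in workers, beside 13.4% and 15.2% of all genes. In the same comparison, the glial marker *Gat-a* was called higher (0.78) and *GlnS* lower (-0.64). Likewise the photoreceptor marker *Blop* was called higher (2.59) and *Lop1* lower (-1.71). Although the glands had been dissected off, the 10 hypopharyngeal gland markers summed to 23800 to 24140 TPM in workers and at most 89.2 TPM elsewhere. Of these markers 9 were called lower in drones than in workers, and *Mrjp8* was called higher (0.69, edgeR FDR = 0.0139). Where these transcripts came from was not tested. Muscle markers were highest in queens, at 668 to 703 TPM, and cuticle markers in drones, at 7853 to 8475 TPM.

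Other genes followed *Jhe* closely over the 6 libraries. By Pearson correlation of log2(CPM + 1) among 7544 genes with a mean of at least 1 CPM, the nearest were LOC725832 (r = 0.999), LOC551510 (r = 0.998) and LOC725305 (r = 0.997). Those with a symbol were *Gat-a* (r = 0.995), *Cryl1* (r = 0.992) and *PGRP-S3* (r = 0.991), a peptidoglycan recognition protein gene. *Gat-a* is a GABA transporter gene and is listed among the glial markers. Unlike *Jhe*, it was not called between drones and queens (log2 difference 0.20, edgeR FDR = 0.0592). Of the 4 glial markers, 1, *Gat-a*, was called higher and 1, *GlnS*, lower in drones than in workers, beside 13.4% and 15.2% of all genes. *PGRP-S3* was at 13.9 and 14.6 CPM in workers, 49.7 and 48.2 in queens and 117 and 127 in drones. The genes nearest to *Kr-h1* were LOC113219291 (r = 0.991), LOC726667 (r = 0.990) and LOC102656072 (r = 0.988), and those with a symbol were *apd-3* (r = 0.917), *Obp11* (r = 0.904) and *Rpl39* (r = 0.900). This *apd-3*, at 0.704 to 5.51 CPM, is a separate entry from the cuticle marker *Apd-3*, which was at 218 to 823 CPM. These r values describe 6 libraries in 3 phenotypes, and those for *Kr-h1* rest on low counts.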

How the data were processed

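Paired-end, stranded reads were quantified by the authors with Kallisto against EnsemblMetazoa transcripts of the honey bee assembly. For each of 28409 targets they deposited an estimated count, which is not normalized, and a TPM value, which is scaled to transcript length and library. The Kallisto version is not given in the sources used here. A further deposited table gives exon coordinates. By these, 28223 targets were paired with 12280 of 12398 RefSeq genes, and 98.1% of paired genes were spanned exactly. Unpaired targets, holding 7.27% to 10.4% of a library, stayed out of library sizes and tests.

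Estimated counts of the targets of a gene were added and rounded to whole numbers, and 9683 genes were tested (2597 were too low) with edgeR 4.0.16 in R 4.3.3 with TMM scaling, caste as the only factor, and 3 residual degrees of freedom. The quasi-likelihood fit also borrows information on the spread from other genes, so tests and intervals rest on more than these 3 degrees of freedom. An exact permutation test of 2 libraries against 2 cannot go below p = 0.333, so none was run. The labels do not say whether replicate pools came from separate colonies or days, and p-values measure only the spread between these pools. No sequence of either gene was used here. The members and the lists of pathway and marker genes were chosen with earlier results of these data known. Most genes carry locus numbers, so pathway genes without a symbol were not analysed here. Genes named are *Jhe*, *Kr-h1*, the listed pathway genes, their neighbours and the genes most like them. Alternatives were DESeq2 1.42.0, limma 3.58.1 on log2 TPM, other scalings and filters, thinning, the most abundant transcript, a replicate block, only the compared phenotypes, and each library left out. Scripts were tested on simulated data. Tables and figures used Python 3.11.15, pandas 2.3.3 and matplotlib 3.10.9.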

Additional observations from a re-analysis of the deposited data

How the results depend on the processing

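*Jhe* kept its direction in all 3 pairs under every alternative, and its calls failed only for drones against queens with limma on log2(TPM + 1) (0.28, FDR = 0.0832) and on log2(TPM + 0.1) (0.28, FDR = 0.117). Without 1 library its log2 difference ran from 1.27 to 1.53 (queens against workers), 1.99 to 2.21 (drones against workers) and 0.67 to 0.73 (drones against queens). For *Kr-h1* these ranges were -0.28 to 7.16, 1.24 to 8.73 and 0.94 to 2.03, with the joint FDR between 0.0176 and 0.375. The reversed value of -0.28 came without worker replicate 2, and values above 7 came without worker replicate 1, when the remaining worker library had 0 counts. Thinning to the smallest library, by a single random draw, gave *Kr-h1* 2.72 for drones against workers and a joint edgeR FDR of 0.0375. Limma with aligned medians gave 1.17. A filter of 10 counts in every library removed *Kr-h1*. LOC726175 between drones and queens reversed to -0.10 with limma at either pseudocount. The cause was not tested in any of these cases.

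The number of genes called moved most when each gene was represented by its most abundant transcript: 1157 (queens against workers), 1752 (drones against workers), 1874 (drones against queens) and 2301 (joint test), against 2159, 2770, 2978 and 3781. Without 1 library these counts ran from 1283 to 2528, 1899 to 2945, 1991 to 2944 and 2798 to 3942, and the lowest for queens against workers were 1311 without worker replicate 1, 1339 without queen replicate 1 and 1283 without queen replicate 2. Of the calls between drones and workers, 47.0% were higher in drones with TMM, 33.4% with library totals and 26.6% with limma on log2(TPM + 1). Between drones and queens these shares were 44.9%, 32.6% and 16.8%, and between queens and workers 53.5%, 52.4% and 72.7%. With the replicate number as a block, *Jhe* gave 1.41, 2.09 and 0.68, *Kr-h1* gave 0.48, 2.00 and 1.52, no call of either gene changed, and 1690, 2268 and 2460 genes were called. Deviations of same-numbered libraries from their phenotype means correlated at -0.03, -0.23 and -0.37. With 2 libraries per phenotype, the deviations of both replicates mirror each other. These values therefore cannot settle whether libraries of different phenotypes shared a batch. *Kr-h1* had at most 54 counts in a library.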
